A study of Homo sapiens with 4 samples.

Results

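Collagen genes were taken as the rows of the expression table whose symbol is COL, a number, A and a number, which gave 42 genes of 30863. They fall into 11 fibrillar collagens, 8 basement membrane collagens (the 6 type IV chains and the multiplexins COL15A1 and COL18A1) and 23 others. The libraries are poly(A)-selected RNA of HepG2, an established human liver cancer line that the labels call hepatoblastoma, with wild-type genotype in all of them. Cells received the solvent DMSO (2 libraries) or AMF, the plant biflavonoid amentoflavone (2 libraries), and both groups were kept for 48 h. For the AMF group the protocol gives 90 µM AMF, but the series' design text speaks of Tub B at 80 µM, so which agent and dose these libraries received is uncertain. Whether replicates 1 and 2 came from separate cultures is not stated, so a p-value here reflects library-to-library spread that could be technical. HepG2 is 1 transformed epithelial line without stromal cells beside it, which limits what it shows of collagen production in liver.

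Collagens are secreted proteins whose chains wind around each other into a helix built on a repeated glycine. Fibrillar collagens pack into the load-bearing fibrils of connective tissue, type IV chains form the sheet-like network of basement membranes, and the remaining families coat fibrils, anchor sheets or sit in the cell membrane. In liver the fibrillar types I and III come mainly from activated stellate cells, and hepatocytes are known as a source of COL18A1, whose C-terminal fragment is endostatin. Values below are normalized counts (reads divided by a size factor per library), as mean ± SD with n = 2 per group or in the order DMSO replicate 1, DMSO replicate 2, AMF replicate 1, AMF replicate 2. A change is the log2 ratio AMF to DMSO computed on log2(normalized count + 1), a scale that understates changes of low genes, and a gene is said to have risen or fallen where limma's adjusted p over all genes tested was at most 0.05.

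Totals were 24226586 to 26966210 reads per library, and a single read equals 0.929 to 1.03 normalized counts. The libraries of a group were not copies of each other, with a chi-square per degree of freedom of 4.02 for the DMSO pair and 2.27 for the AMF pair over genes. Reads were found for 23929 and 24108 genes in DMSO and for 25985 and 25632 in AMF. Hepatocyte markers were abundant in every library, with a summed level over 10 genes of 541758 and 522714 in DMSO against 420537 and 400394 in AMF, and 6 of them fell (APOB by 0.64 and TF by 0.97 on the log2 scale) while 2 rose (HNF4A by 0.86 and APOA2 by 0.35). Of 9 markers of stellate cells or fibroblasts with a row, 5 stayed under 10 in every library. Among them DCN and LUM had 0 in both DMSO libraries and at most 2.79 in AMF. Others of the list were present in DMSO: PDGFRB at 94.0 and 108, TAGLN at 63.0 and 52.4, and RGS5 at 62.0 and 45.2. The sum over the list was 985.6 and 987.7 in DMSO and 1393 and 1417 in AMF, most of it ACTA2. The 7 endothelial markers summed to 178 and 214 in DMSO and to 347 and 338 in AMF, most of it PECAM1. Of 5 tested, 2 rose (PECAM1 by 0.79 and VWF by 2.04) and 0 fell. VWF was low, with 8.0 and 1.03 in DMSO and 24.1 and 11.3 in AMF. Marker counts here stand against 15.6% higher and 16.2% lower over all genes tested, or 23.6% and 31.1% at a mean of at least 100. The 4 leukocyte markers summed to 25213 and 24611 in DMSO and to 18427 and 17466 in AMF, nearly all of it LYZ, which fell (-0.48, adjusted p = 2.87e-07). CD14 rose from 5.0 and 12.3 in DMSO to 31.6 and 19.6 in AMF (1.53, adjusted p = 0.0274), and the other 2 did not pass. The part of other cell types in the collagen results was not tested, and in such bulk libraries fewer cells making a transcript and less of it per cell cannot be told apart.

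Collagen reads came from few genes. The fibrillar COL27A1, the multiplexin COL18A1, the type IX chains COL9A3 and COL9A2 and the anchoring fibril collagen COL7A1 together took 97.2% and 97.1% of the collagen reads in DMSO and 95.9% and 95.7% in AMF. They are the 5 members with a mean of at least 1000. Another 14 had a mean of at least 10, 12 a mean between 1 and 10, and 11 a mean under 1. Per 1000000 reads, collagen reads came to 1490.2 and 1431 in DMSO and to 1299 and 1253.5 in AMF, so the AMF libraries lay below both DMSO libraries. COL18A1 took 24.1% and 23.7% of collagen reads in DMSO against 19.1% and 19.4% in AMF, whereas COL9A2 went from 6.58% and 7.31% to 10.9% and 11.2%. COL27A1 held 34.7% and 33.0% in DMSO and 33.5% and 32.4% in AMF, with overlapping groups. The plot of read shares shows the narrower COL18A1 and the broader COL9A2 and COL7A1 segments in AMF.

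**Figure D1:**
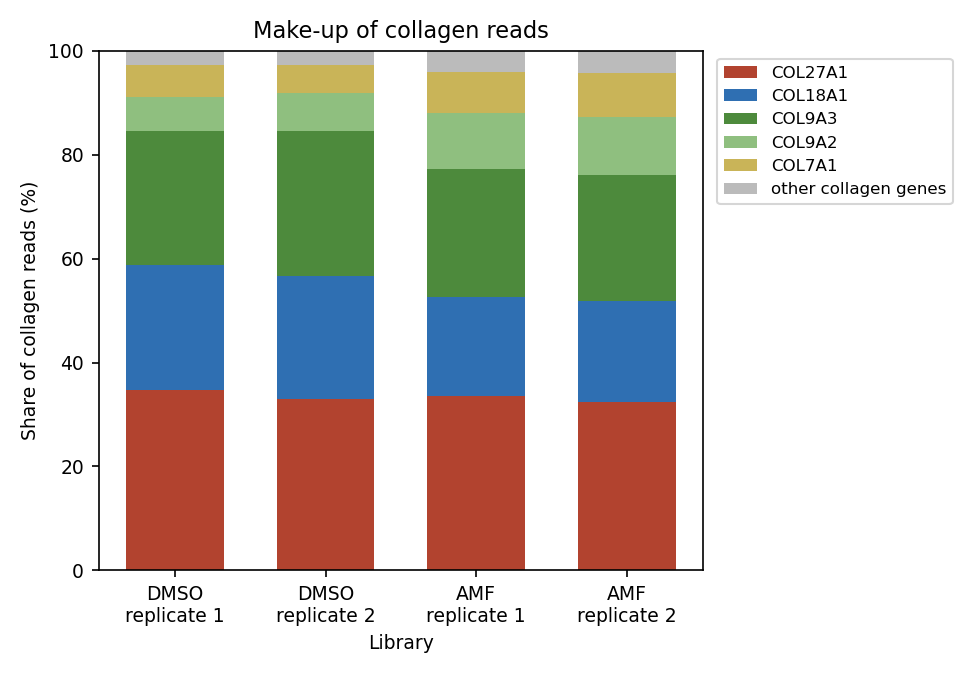
Share of collagen reads (percent) taken by COL27A1, COL18A1, COL9A3, COL9A2, COL7A1 and all other collagen genes in each of the 4 libraries. COL18A1 takes 24.1% and 23.7% in DMSO and 19.1% and 19.4% in AMF, and COL9A2 takes 6.58% and 7.31% in DMSO and 10.9% and 11.2% in AMF.

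Of the 42 collagen genes, 31 had a mean of at least 1 and were tested, of which 10 rose, 5 fell and 16 did not pass. Over all 23828 genes tested 31.8% passed, 15.6% higher and 16.2% lower, against 48.4%, 32.3% and 16.1% of the tested collagens. The median log2 change was 0.49 for the tested collagens (also with the one gene at 0 in DMSO at its bound) and 0.035 over all genes. The all-gene median varied with level: 0.295 at a mean from 1 to 10, 0.118 from 10 to 100 and -0.04 from 100 upward. Of the tested collagens 12, 12 and 7 lay in these ranges. A low gene can pass the filter through the group where it is high: 28 of the 31 had a mean of at least 1 in both groups, and of these 8 rose and 5 fell. Among all 7983 genes with a mean from 1 to 10, 350 rose (4.38%) and 66 fell (0.827%). Among the 12 collagens of that range 3 rose and 0 fell. From 10 to 100 the counts were 737 (15.7%) and 329 (6.99%) of 4708 genes, and 4 and 2 of 12 collagens. From 100 upward they were 2631 (23.6%) and 3465 (31.1%) of 11137 genes, and 3 and 3 of 7 collagens. Called or not, both AMF libraries lay above both DMSO libraries in 19 of the 31 tested collagens (33.8% of all genes tested do so) and below them in 6 (29.7%), so that groups did not overlap in 25, against 63.4% of all genes.

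The 3 classes differed in their counts, a difference for which no test was made, and also in their levels. Over all genes tested 15.6% rose and 16.2% fell. At a mean from 10 to 100 the shares were 15.7% and 6.99%, and from 100 upward 23.6% and 31.1%. A mean of at least 10 was reached by 8 of 8 tested fibrillar, 2 of 6 basement membrane and 9 of 17 other collagens. At that level, in the same order, 1 rose and 3 fell (median 0.20), 0 and 1 (-0.03), and 6 and 1 (0.61). The mean used here pools both groups, so a gene can reach it through 1 group. The fibrillar rise, COL5A3, and COL13A1 and COL6A3 among the others had DMSO means under 10 (8.67, 2.57 and 2.04). COL1A1, among the fibrillar falls, had an AMF mean of 6.91. Of 11 fibrillar collagens 8 were tested, and 1 rose, 3 fell and 4 did not pass, with a median change of 0.20. Of 8 basement membrane collagens 6 were tested, and 0 rose, 1 fell and 5 did not pass, with a median of -0.31. Of the 23 other collagens 17 were tested, and 9 rose, 1 fell and 7 did not pass, with a median of 0.76. COL14A1, COL20A1 and COL21A1 in that class passed the filter on low values only through the AMF group. Without them, over the 14 others with a mean of at least 1 in both groups, 7 rose and 1 fell, with a median of 0.63. Without AMF replicate 1 or AMF replicate 2, limma-trend called 0 of the 31 tested collagens, when 11 and 12 had an unadjusted p under 0.05, and 0 genes of the whole table. Its prior degrees of freedom fell there from 11.9 to 0.995 and 1.0. Voom, limma's test on the recovered reads, kept 2 of the 15 calls without AMF replicate 1 (COL6A2 and COL9A3) and 1 without AMF replicate 2 (COL9A3), against all 15 with the 4 libraries. Of the 15 calls, limma-trend kept 6 without DMSO replicate 1 and 8 without DMSO replicate 2, and voom kept 10 and 11. The calls that limma-trend kept both without DMSO replicate 1 and without DMSO replicate 2 were those of COL1A1, COL18A1, COL9A2 and COL9A3.

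**Figure D2:**
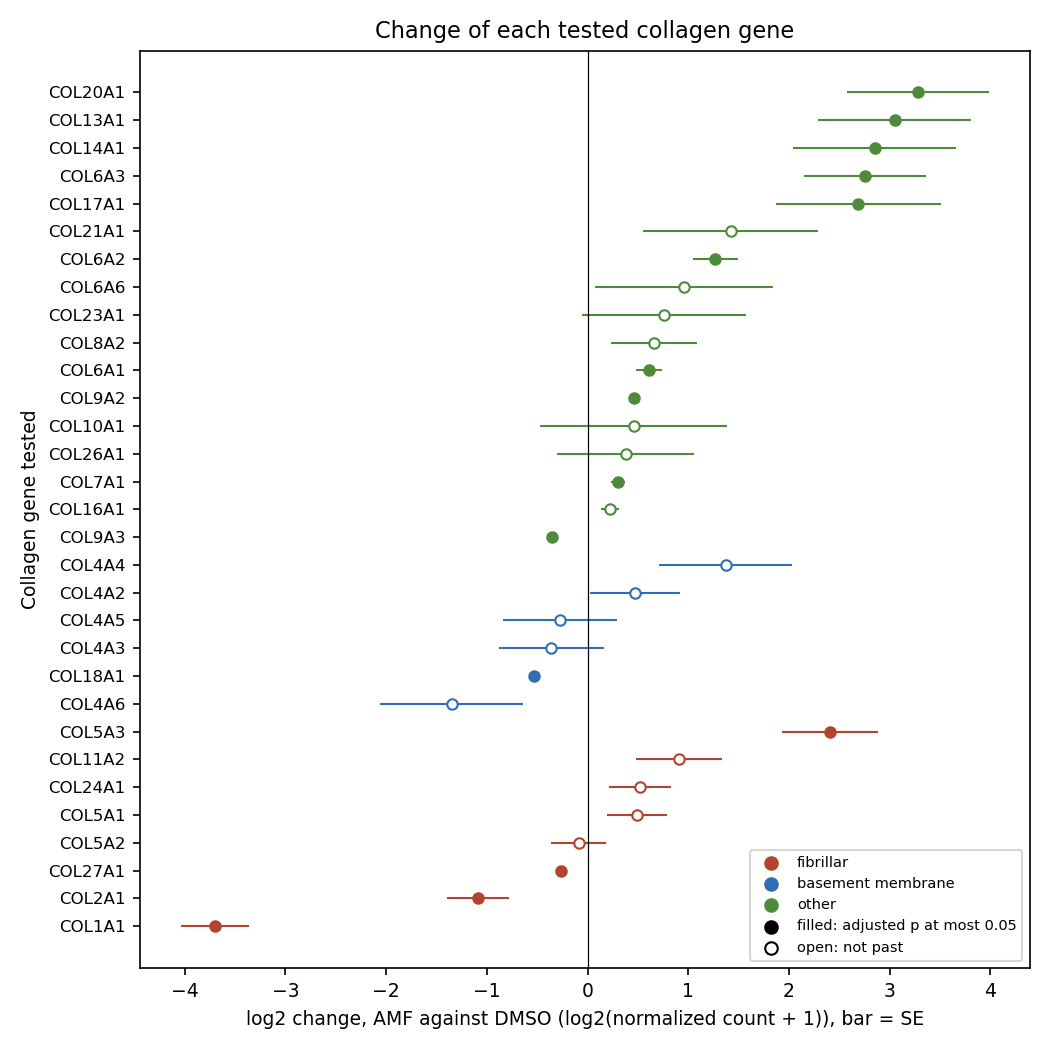
The log2 change from DMSO to AMF (axis in log2(normalized count + 1) units), with its SE, for the 31 tested collagen genes in 3 classes, 2 libraries per group. Filled points passed an adjusted p of 0.05: 3 of the 4 filled fibrillar points lie below 0, and 9 of the 10 filled points among the other collagens lie above 0.

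Among fibrillar collagens, the largest fall was in COL1A1, the main chain of type I collagen. COL1A1 had 116 and 86.2 normalized counts in DMSO and 5.57 and 8.24 in AMF. Both AMF libraries were far below both DMSO libraries, with a log2 change of -3.70 (SE 0.342, adjusted p = 1.16e-06), 13.0-fold lower. In reads the ratio of AMF to DMSO was 0.0675, with a 95% exact interval of 0.0362 to 0.116 that covers counting error only. Its partner chain COL1A2 had 1 read over the DMSO libraries and 1 over the AMF libraries. COL3A1, the type III chain that accompanies type I in liver scars, had 1 and 2 reads over DMSO and AMF. Among the stellate cell and fibroblast markers, where 7 genes were tested, 2 rose and 2 fell, against 15.6% and 16.2% of all genes tested. ACTA2 had 760 and 775 in DMSO and 1173 and 1200.1 in AMF, and TAGLN 63.0 and 52.4 against 113 and 135. PDGFRB had 94.0 and 108 against 26 and 13.4, and PDGFRA 4.0 and 5.13 against 0 and 0. Their part in the fall of COL1A1 was not tested.

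COL27A1, a long-chain fibrillar collagen known from cartilage, was the most abundant member in reads. It had 13208 and 11923 normalized counts in DMSO and 10884 and 10141 in AMF. The groups did not overlap, and the fall was small, with a log2 change of -0.26 (SE 0.0507, adjusted p = 0.00118) that no longer passed in limma-trend without DMSO replicate 1 (-0.18, adjusted p = 0.131). COL2A1, the main collagen of cartilage, had 44.0 and 43.1 in DMSO against 21.4 and 18.5 in AMF, a fall of 2.13-fold (-1.09, SE 0.309, adjusted p = 0.0137) whose call ended in limma-trend without DMSO replicate 1 (adjusted p = 0.125) and without DMSO replicate 2 (0.124).

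COL5A3, a type V chain that joins the other type V chains in thin fibrils, was the fibrillar member that rose. It had 4.0 and 13.3 in DMSO and 39.9 and 48.4 in AMF. All AMF values exceeded all DMSO values, and the DMSO pair differed among themselves, with a log2 change of 2.41 (SE 0.478, adjusted p = 0.00122) that became 1.65 without DMSO replicate 1 (adjusted p = 0.0603) and 3.17 without DMSO replicate 2. The other type V chains did not pass. COL5A1 had 29.4 ± 0.554 in DMSO and 42.1 ± 10.03 in AMF, and COL5A2 had 49.0 ± 12.7 and 45.6 ± 7.70. In normalized counts per kilobase of annotated exon, COL5A3 was at 1.28 in DMSO, below COL5A1 (2.63) and COL5A2 (6.58). In AMF it was at 6.54 ± 0.889, against 3.76 ± 0.897 for COL5A1 and 6.12 ± 1.03 for COL5A2. The gap between COL5A3 and COL5A2 in AMF was smaller than either SD. COL11A2 (a change of 0.91, adjusted p = 0.13) and COL24A1 (0.52, adjusted p = 0.228) lay higher in both AMF libraries than in both DMSO libraries without passing in limma. COL11A1 had 1 read in all.

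**Figure D3:**
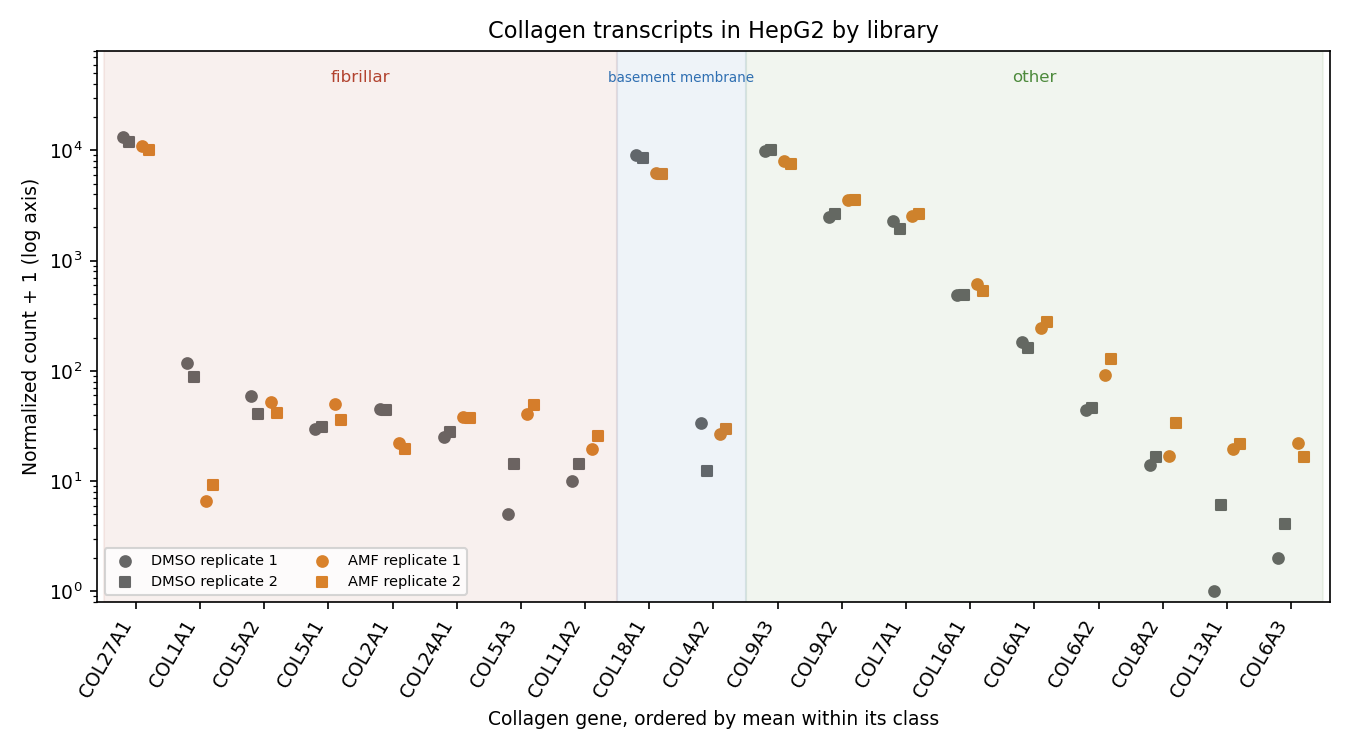
Normalized count plus 1 (log axis) of the 19 collagen genes with a mean of at least 10, by class, with DMSO libraries in grey and AMF libraries in orange. COL1A1 lies at 116 and 86.2 in DMSO and at 5.57 and 8.24 in AMF, while COL6A2, COL6A3 and COL5A3 lie higher in both AMF libraries.

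Basement membrane collagens were carried almost wholly by COL18A1, a homotrimer of basement membranes with sugar chains attached. COL18A1 had 9157 and 8554 normalized counts in DMSO and 6224 and 6072 in AMF. Both AMF libraries lay below both DMSO libraries, 1.44-fold lower (-0.53, SE 0.0448, adjusted p = 5.08e-07). Per the annotation used, 16.4% of its exon bases overlap exons of SLC19A1, a folate carrier with 2138 and 2281 in DMSO and 1738 and 1812 in AMF, and without strand those reads cannot be assigned to one of them. COL18A1 has separate start sites that give its short and long forms, and both are shown because the gene counts join them. GC boxes (GGGCGG, either strand, overlapping matches counted separately) and TATA boxes (TATAAA, either strand) stand in capitals, in windows from 250 bases before to 50 after a start, from RefSeq on GRCh38.p14. The first window is chr21:45404915-45405214, plus strand, and the second chr21:45455272-45455571, plus strand.
COL18A1 upstream start: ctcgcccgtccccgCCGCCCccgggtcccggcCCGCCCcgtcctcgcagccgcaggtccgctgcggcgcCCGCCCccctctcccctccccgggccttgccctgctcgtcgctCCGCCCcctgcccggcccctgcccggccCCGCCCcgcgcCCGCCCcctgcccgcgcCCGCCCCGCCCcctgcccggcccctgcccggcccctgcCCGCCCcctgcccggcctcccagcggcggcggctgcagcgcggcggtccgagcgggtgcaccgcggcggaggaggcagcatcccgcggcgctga
COL18A1 downstream start: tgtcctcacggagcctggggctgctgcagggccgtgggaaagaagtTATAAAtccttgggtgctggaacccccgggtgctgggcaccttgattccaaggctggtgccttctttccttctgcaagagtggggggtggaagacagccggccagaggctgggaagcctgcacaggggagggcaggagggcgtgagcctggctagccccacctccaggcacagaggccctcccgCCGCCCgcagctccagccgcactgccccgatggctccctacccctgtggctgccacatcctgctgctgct
The upstream window holds 9 GC boxes and 86.7% G or C, and the downstream window 1 GC box, 1 TATA box and 66.3% G or C. Of all 35116 windows of this length, 45.0% hold a GC box and 11.5% a TATA box. The multiplexin relative COL15A1 had 3 reads over DMSO and 0 over AMF.

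No type IV chain passed in limma (0 of 5 tested, 0 by voom as well, and 0 at an unadjusted p under 0.05), and all were low. COL4A3, COL4A4, COL4A5 and COL4A6 had a mean between 1 and 10, where few genes pass: 4.38% of all such genes rose and 0.827% fell. The chains form the trimer of COL4A1 and COL4A2 found in nearly all basement membranes and tissue-restricted trimers of the other chains. COL4A2 had 33.0 and 11.3 in DMSO and 26 and 28.8 in AMF, with overlapping groups and a DMSO pair that differed by more than the groups did. Its change of 0.47 (SE 0.443, adjusted p = 0.466) became -0.26 without DMSO replicate 2. COL4A1 had 1 read in DMSO replicate 1 and 0 in the other libraries. The pair is shown because these genes stand head to head on opposite strands, with starts 127 bases apart in RefSeq, yet reads came almost only from one side. The sequence is the COL4A2 window (chr13:110307034-110307333, plus strand), with the 226 bases that also lie in the COL4A1 window in capitals.
COL4A2: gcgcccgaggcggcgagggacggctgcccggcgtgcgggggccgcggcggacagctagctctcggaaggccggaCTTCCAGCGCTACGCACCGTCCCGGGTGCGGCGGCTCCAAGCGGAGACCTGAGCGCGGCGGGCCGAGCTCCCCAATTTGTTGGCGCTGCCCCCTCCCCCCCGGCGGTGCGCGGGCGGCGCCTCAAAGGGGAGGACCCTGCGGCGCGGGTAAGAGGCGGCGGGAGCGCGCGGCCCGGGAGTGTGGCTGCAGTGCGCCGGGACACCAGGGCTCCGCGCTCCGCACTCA
The other type IV genes are arranged in the same way, with starts 419 bases apart for COL4A3 and COL4A4 and 380 for COL4A5 and COL4A6. COL4A3 had 9.0 and 12.3 in DMSO and 10.2 and 6.18 in AMF, and its neighbour COL4A4 had 2.0 and 2.05 in DMSO and 6.5 and 7.21 in AMF. COL4A4 lay higher in both AMF libraries without passing (1.37, adjusted p = 0.136), while COL4A3 overlapped between groups. COL4A5 had 8.0 and 9.24 in DMSO and 4.64 and 10.3 in AMF, and COL4A6 had 6.0 and 8.21 against 0.929 and 4.12 (-1.35, adjusted p = 0.173). The exact interval of the read ratio was 1.06 to 14.1 for COL4A4 and included 1 for the other tested chains, so no change of a type IV chain passed the test, which does not show that their levels were equal.

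Of all genes tested 15.6% rose (4.38% at a mean from 1 to 10, 15.7% from 10 to 100 and 23.6% from 100 upward). Of 5 type VI genes 4 were tested, and 3 rose, COL6A1, COL6A2 and COL6A3. Type VI collagen forms beaded filaments around cells from the chains of these genes. COL6A1 had 182 and 159 in DMSO and 244 and 276 in AMF (0.61, SE 0.129, adjusted p = 0.00208). COL6A2 had 43.0 and 45.2 in DMSO and 91.0 and 128 in AMF (1.27, SE 0.224, adjusted p = 4.56e-04). COL6A3 had 1.0 and 3.08 in DMSO and 21.4 and 15.5 in AMF (2.75, SE 0.606, adjusted p = 0.00267). In each of them both AMF libraries lay above both DMSO libraries, and the read ratio of COL6A3 was 9.16 with an exact interval of 3.30 to 35.3. With limma-trend the calls of COL6A1 (adjusted p = 0.0588 and 0.0996) and COL6A2 (0.0849 and 0.0797) ended without DMSO replicate 1 and without DMSO replicate 2, and that of COL6A3 ended without DMSO replicate 1 (0.074). With voom, of these genes, the call of COL6A3 ended without either DMSO library (0.0892 and 0.0694).

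The type VI chains stayed far from equal levels per length. In normalized counts per kilobase, COL6A2 was at 0.234 and 0.282 of COL6A1 in the DMSO libraries and at 0.370 and 0.459 in the AMF libraries. COL6A3 was at 0.0015 and 0.00527 of COL6A1 in DMSO and at 0.0238 and 0.0152 in AMF, so it remained the scarcest of these chains in each library. COL6A6 had 0 and 2.05 in DMSO and 2.79 and 2.06 in AMF and did not pass (adjusted p = 0.458), and COL6A5 had 1 read in all. COL6A1 and COL6A2 are adjacent protein-coding genes on chromosome 21, where COL18A1, which fell, is also found. Windows of COL6A2 (chr21:46097862-46098161, plus strand) and COL6A3 (chr2:237414115-237414414, minus strand) are printed with capitals as for COL18A1, since both genes rose.
COL6A2: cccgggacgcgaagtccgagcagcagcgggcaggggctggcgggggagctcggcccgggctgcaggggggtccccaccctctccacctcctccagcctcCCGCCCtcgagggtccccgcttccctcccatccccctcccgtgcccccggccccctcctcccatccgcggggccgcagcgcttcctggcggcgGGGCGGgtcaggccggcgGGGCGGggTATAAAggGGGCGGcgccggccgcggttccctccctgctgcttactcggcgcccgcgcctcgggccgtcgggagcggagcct
COL6A3: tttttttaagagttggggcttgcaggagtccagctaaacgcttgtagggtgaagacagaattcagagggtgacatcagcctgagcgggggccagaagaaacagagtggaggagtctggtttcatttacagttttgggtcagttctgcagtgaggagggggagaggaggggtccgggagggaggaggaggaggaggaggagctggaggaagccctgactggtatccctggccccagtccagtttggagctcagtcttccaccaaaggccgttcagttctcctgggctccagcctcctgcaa
They share little on this measure: COL6A2 holds 4 GC boxes and a TATA box in 79.3% G or C, and COL6A3 holds neither motif in 56.3% G or C.

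Collagens that associate with fibrils (FACIT) moved in both directions. Type IX collagen, a cartilage fibril coat built of COL9A1, COL9A2 and COL9A3 chains, was represented by COL9A2 and COL9A3, and COL9A1 had 1 read in all libraries. COL9A3 had 9811 and 10028 in DMSO and 7997 and 7571 in AMF. It fell, without overlap, by 0.35 on the log2 scale (SE 0.0423, adjusted p = 1.51e-05). COL9A2 had 2501 and 2641 in DMSO and 3555 and 3514 in AMF. It rose, without overlap, with a log2 change of 0.46 (SE 0.0503, adjusted p = 5.92e-06). Per kilobase, COL9A2 thus went from 0.293 and 0.302 of the COL9A3 level in DMSO to 0.510 and 0.533 in AMF. COL9A3 had the highest level per kilobase of all members, with 2049 ± 31.7 in DMSO and 1608 ± 62.3 in AMF, above COL18A1 (1039 ± 49.97 and 721 ± 12.6) and COL27A1 (898 ± 65 and 752 ± 37.6).

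The windows of COL9A2 (chr1:40317237-40317536, minus strand), which rose, and of COL27A1 (chr9:114155287-114155586, plus strand), which fell, are shown as abundant members that moved in opposite directions, with the same capitals.
COL9A2: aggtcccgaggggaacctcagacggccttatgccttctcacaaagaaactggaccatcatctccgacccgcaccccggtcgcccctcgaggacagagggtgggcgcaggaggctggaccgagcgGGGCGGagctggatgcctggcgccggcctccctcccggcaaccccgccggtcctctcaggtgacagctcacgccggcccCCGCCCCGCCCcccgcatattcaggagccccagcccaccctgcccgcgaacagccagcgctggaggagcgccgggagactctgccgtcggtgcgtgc
COL27A1: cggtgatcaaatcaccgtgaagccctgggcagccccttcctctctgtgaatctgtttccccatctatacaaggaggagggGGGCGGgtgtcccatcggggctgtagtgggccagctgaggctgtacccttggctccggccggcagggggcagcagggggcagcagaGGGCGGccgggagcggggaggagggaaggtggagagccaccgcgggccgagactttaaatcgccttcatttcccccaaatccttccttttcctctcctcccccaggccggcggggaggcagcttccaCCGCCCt
Both hold 3 GC boxes and no TATA box. The core of the xenobiotic response element (GCGTG, either strand), which the aryl hydrocarbon receptor binds, occurs 2 times in the COL9A2 window, 1 time in the downstream COL18A1 window and 0 times in those of COL27A1, COL6A2 and COL6A3, and 36.5% of all windows hold it. Windows were at hand for 30 of the 42 collagen genes (42 windows). Of these 42 windows 8 hold a TATA box, 24 a GC box and 15 the GCGTG core, against 11.5%, 45.0% and 36.5% of all windows. Of the 7 windows of genes that rose, 4 hold a TATA box (COL6A2, COL7A1, COL13A1 and COL17A1), 4 a GC box and 2 the GCGTG core. Of the 3 windows of genes that fell, 1, 3 and 1 do. Such matches were counted at any place in a window, without regard to their distance from the start. They describe letters in these windows and do not show that a factor binds.

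COL16A1, a FACIT collagen of skin and cartilage, had 486 and 488 in DMSO and 606 and 533 in AMF. The AMF libraries were both higher, but the change of 0.22 did not pass (SE 0.0885, adjusted p = 0.0715); it passed with library totals as scaling, with a mean of at least 10 and with the replicate block. COL20A1 had 1.0 and 0 in DMSO and 12.1 and 13.4 in AMF and rose by limma (adjusted p = 0.00232), with a read ratio of 25.1 and an exact interval of 4.12 to 1027.8 from 1 DMSO read. COL14A1, which binds fibril surfaces, had 0 in both DMSO libraries and 4.64 and 8.24 in AMF (adjusted p = 0.0144), at least 4.18-fold higher when DMSO is set to a group floor of 3 reads, and the exact interval of its read ratio starts lower, at 2.94. The call of COL14A1 ended in limma-trend without DMSO replicate 1 (adjusted p = 0.0848) and without DMSO replicate 2 (0.0856), and that of COL20A1 without DMSO replicate 2 (0.0562). COL20A1, COL14A1 and COL21A1 passed the filter only through the AMF group. COL21A1 (1 and 6 reads over DMSO and AMF) was tested and did not pass, and COL12A1 (0 and 3 reads) and COL22A1 (0 and 1) were too low for a test.

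COL7A1, whose homotrimers form the fibrils that anchor epithelium to the tissue below, rose a little. It had 2282 and 1953 in DMSO and 2554 and 2651 in AMF. The AMF values lay above both DMSO values, with a log2 change of 0.30 (SE 0.0671, adjusted p = 0.00287) that became 0.19 in limma-trend without DMSO replicate 2 (adjusted p = 0.0907). The gap between the DMSO libraries was larger than the gap from DMSO replicate 1 to AMF replicate 1.

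Of 3 transmembrane collagens, COL13A1 and COL17A1 rose and COL23A1 did not pass. Over all genes, 4.38% rose at a mean from 1 to 10 and 15.7% from 10 to 100. COL13A1, a collagen of cell junctions, had 0 and 5.13 in DMSO and 18.6 and 20.6 in AMF, a change of 3.05 (SE 0.760, adjusted p = 0.00618). COL17A1, the hemidesmosome collagen of epithelia, had 0 and 5.13 in DMSO and 9.29 and 23.7 in AMF, a change of 2.69 (SE 0.817, adjusted p = 0.0207). Groups did not overlap in either, but the size rests on single libraries. COL13A1 changed by 1.75 without DMSO replicate 1 and by 4.36 without DMSO replicate 2, and COL17A1 by 1.38 and 3.99, and by 3.32 and 2.05 without AMF replicates 1 and 2. Both calls ended with a pseudocount of 0.1, and that of COL17A1 also without a filter on low values. In limma-trend the call of COL13A1 ended without DMSO replicate 1 (adjusted p = 0.0857) and that of COL17A1 without DMSO replicate 1 (0.297) and without DMSO replicate 2 (0.0657). COL23A1 had 2 reads over DMSO and 5 over AMF (0.76, adjusted p = 0.532).

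The remaining members were low and did not pass or were not tested. COL8A2, a short-chain network collagen, had 13.0 and 15.4 in DMSO and 15.8 and 33.0 in AMF (0.66, adjusted p = 0.282), and COL10A1, known from growth cartilage, had 5 reads in each group. COL26A1 had 3.55 ± 0.783 in DMSO and 5.26 ± 3.07 in AMF. COL8A1 (1 and 2 reads over DMSO and AMF) and COL28A1 (1 and 1) had too few reads for a test.

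Genes that act on collagens were described by lists, whose counts stand against 15.6% higher and 16.2% lower over all genes tested, or 23.6% and 31.1% over genes with a mean of at least 100. Of 24 genes of chain modification, folding and secretion, 23 were tested, and 1 rose, 7 fell and 15 did not pass, with a median change of -0.06. The lysyl hydroxylase PLOD2, which prepares telopeptide cross-links, fell from 4882 and 4164 in DMSO to 1878 and 1750.2 in AMF (-1.31, SE 0.0679, adjusted p = 2.98e-09). The galactosyltransferase COLGALT2 fell (-0.78), and its relative COLGALT1 rose slightly (0.14). Of 9 genes of propeptide removal, 3 rose, 2 fell and 4 did not pass (median 0.26). The procollagen N-proteinase ADAMTS2 (0.63) and the C-proteinase BMP1 (0.26) rose, whereas the meprin MEP1A (-1.12) and the enhancer PCOLCE2 (-0.47) fell.

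The summed level of 7 cross-linking genes was 10350.1 and 10219 in DMSO against 4070 and 3854 in AMF. Of these genes 1 rose, 3 fell and 3 did not pass, with a median of 0.63. The median weighs all 7 genes alike, whatever their level. It includes PXDN (2.07, not passing), which had 0 and 0 in DMSO and 1.86 and 5.15 in AMF. LOX, the lysyl oxidase that starts cross-links in fibrillar collagens, had 5876 and 5253 in DMSO and 1419.8 and 1301 in AMF (-2.03, SE 0.0625, adjusted p = 1.97e-11). The transglutaminase TGM2 fell as well (-1.02). LOXL2, a lysyl oxidase that also acts on type IV collagen, rose from 53.0 and 55.4 in DMSO to 180.1 and 198 in AMF (1.78, SE 0.171, adjusted p = 1.70e-06).

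Of 15 tested genes of collagen breakdown and its inhibitors, 8 rose, 2 fell and 5 did not pass (median 0.32). The list pools proteases with their inhibitors, and inhibitors of the TIMP family were among the 8 that rose, so the count is not one of breakdown alone. The interstitial collagenase MMP1, which cleaves fibrillar collagens, had 2.0 and 3.08 in DMSO and 100.3 and 128 in AMF, a change of 5.03 (SE 0.389, adjusted p = 1.86e-07). The collagen uptake receptor MRC2 rose (1.87), and the membrane protease MMP15 (-0.62) and the lysosomal protease CTSB (-0.14) fell. Of 9 tested collagen receptors, 3 rose, 1 fell and 5 did not pass (median 0.09). The integrin subunits ITGA11 (3.12, from 1.0 and 2.05 in DMSO to 21.4 and 19.6 in AMF) and ITGA2 (0.43) rose, and their partner ITGB1 fell (-0.24).

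Of 14 basement membrane partners, 2 rose, 4 fell and 8 did not pass (median -0.09). NID1, which links laminin to type IV collagen, had 9497 and 9014 in DMSO and 4511 and 4461 in AMF (-1.04, SE 0.0437, adjusted p = 3.97e-10). The proteoglycan AGRN fell (-0.38), and the laminin chains LAMC3 (1.54) and LAMC1 (0.18) rose. Of 7 tested fibril partners, 2 rose, 2 fell and 3 did not pass (median 0.16). Fibronectin, FN1, on which collagen fibrils assemble, fell from 265383 and 254365 in DMSO to 156650.4 and 151364 in AMF (-0.75), and SPARC fell (-0.43), whereas TNXB (0.75) and THBS1 (0.16) rose. Exons of LOX, LOXL2, TGM2, MMP1, MRC2, BMP1, ITGB1, AGRN, SPARC, THBS1 and TNXB overlap those of other genes in GENCODE, and reads there cannot be assigned to one gene. Of these 25 named genes, limma-trend kept 18 and 16 calls without DMSO replicates 1 and 2 and 0 without either AMF replicate, and voom kept 22, 22, 11 and 11. Without a filter on low values the small changes of COLGALT1 (adjusted p = 0.0552) and THBS1 (0.0658) no longer passed, nor did THBS1 with a pseudocount of 0.1 (0.0557). The plot of the largest changes in each list shows them with their errors.

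**Figure D4:**
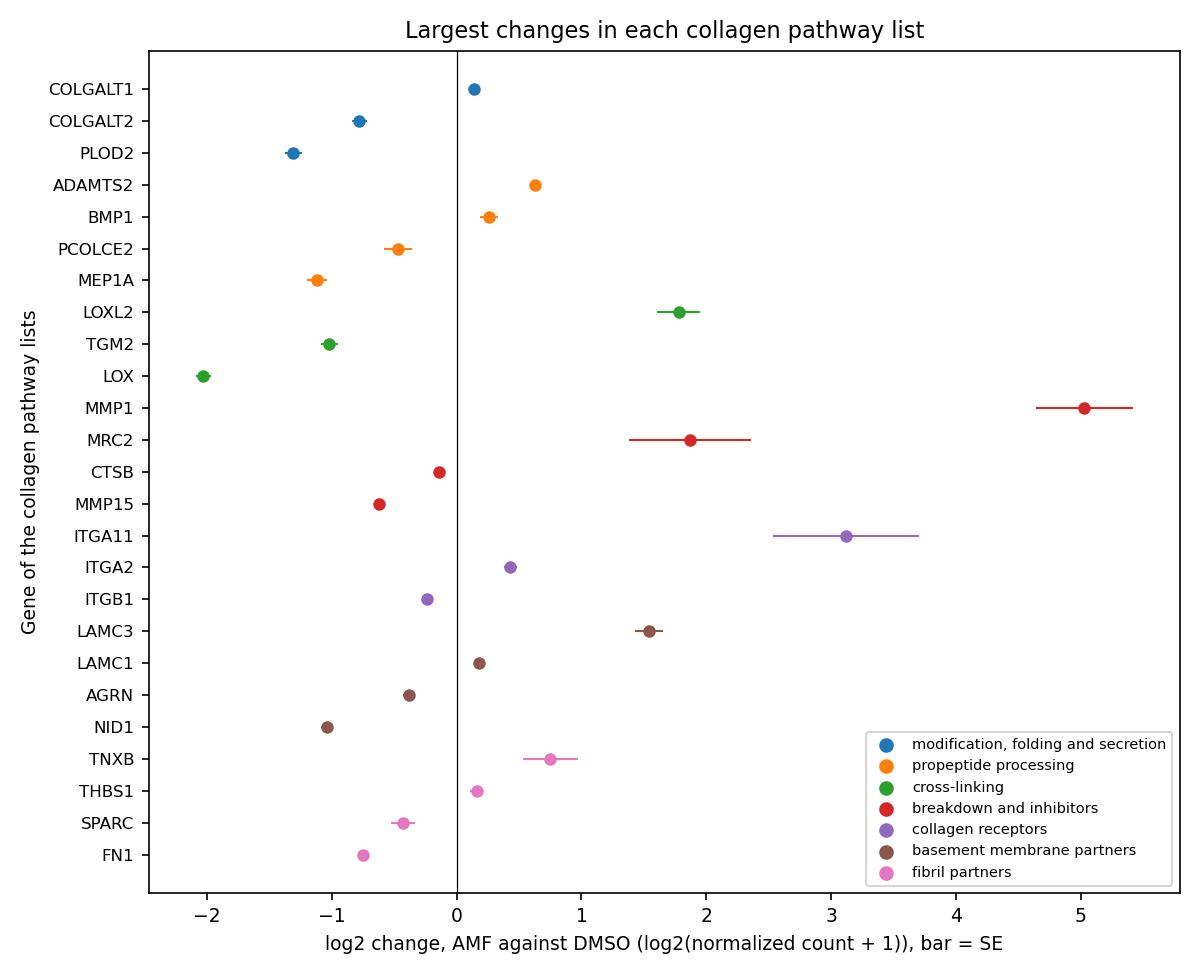
The log2 change from DMSO to AMF (axis in log2(normalized count + 1) units), with its SE, for the 25 genes named from 7 lists of collagen modification, processing, cross-linking, breakdown, receptors and matrix partners. MMP1 lies highest at 5.03, ahead of ITGA11 at 3.12, and LOX lies lowest at -2.03.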

How the data were processed

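The deposited table held log2-scale values of 30863 genes, which the authors made from reads of 4 libraries; the submitters' processing notes name hg19, STAR 2.7.0 and featureCounts, while annotation, filtering and normalization are steps not given in the sources used here. Libraries were made with a non-directional kit, per the labels' protocols. The lowest value, 6.01, was shared by all columns, and the values behave as variance-stabilized counts after division by size factors (read from the values, stated nowhere). Inverting it gave whole reads within 0.01 for 100% of values in each library, and size factors of 0.971 to 1.08 equal to median-of-ratios factors. Simulated counts were returned for 100% of values. They had been transformed with the same formula, so this checks the computation and not the choice of formula. Columns of other samples numbered 0.

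The test was limma-trend (limma 3.58.1, R 4.3.3) on log2(normalized count + 1) for 23828 genes with a mean of at least 1, with group as its one factor and p-values adjusted over all of them by Benjamini-Hochberg. It was checked on simulated counts, as was voom. Exact binomial intervals (95%) on reads and the floor of 3 reads cover counting error only. Exon lengths and overlaps came from GENCODE 29 and start windows from RefSeq, on another build than hg19. All collagens with a mean of at least 10 are named, and from each list up to 2 rises and 2 falls with a mean of at least 10; members and lists were chosen with earlier results of these data known. MIA2 and ADGRG1 were found under older symbols. List genes without a row were not analysed here. Alternatives were library totals, the deposited values, a pseudocount of 0.1, other filters, voom, a stricter threshold, another class for the multiplexins, the replicate block and each library left out. Figures were drawn with matplotlib 3.10.9.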

Additional observations from a re-analysis of the deposited data

How the results depend on the processing

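With all libraries, counts of collagens higher and lower stayed within 1.5 times of 10 and 5 under library totals, deposited values, a pseudocount of 0.1, other filters on low values and voom. On the deposited scale, which compresses low counts, called changes were smaller (COL1A1 -1.23, COL5A3 0.66, COL6A2 0.6), and with a pseudocount of 0.1 those of members near 0 in DMSO were larger (COL14A1 5.97, COL20A1 5.27, COL13A1 4.76 with adjusted p = 0.0715, COL17A1 4.37 with 0.104). When a log2 change of 1 or more was also required, 2 collagens were lower, of which 0 among basement membrane and 0 among other collagens, and 1183 and 489 of all genes were higher and lower. With the multiplexins among the other collagens, 0 basement membrane collagens and 2 others were lower. Samples share only a replicate number (correlation of the replicate differences 0.014 over 15845 genes); with the replicate block 11 collagens were higher and 5 lower, the added one being COL16A1, and 4049 and 4108 of all genes. With limma-trend, collagens higher and lower were 3 and 3 without DMSO replicate 1, 4 and 4 without DMSO replicate 2 and 0 and 0 without either AMF replicate (fibrillar 0 to 1 and 0 to 2, basement membrane 0 to 1 lower, others 0 to 3 and 0 to 1; all genes 1753 and 1778, 1662 and 1780, and 0 and 0). With voom they were 5 and 5, 6 and 5, 1 and 1 (without AMF replicate 1) and 0 and 1 (without AMF replicate 2), with 0 to 1 and 0 to 3 fibrillar, 0 to 1 lower basement membrane, 0 to 5 higher (4 and 5 without DMSO replicates) and 1 lower of the others, and 667 and 714 or 648 and 695 of all genes without AMF replicates 1 and 2. The change of COL4A2 ranged from -0.26 to 1.21 with limma-trend and from -0.27 to 1.24 with voom, and that of COL5A2 from -0.35 to 0.17 and from -0.34 to 0.18, with 0.08 without AMF replicate 2. Without AMF replicates 1 and 2, where limma-trend called 0, 11 and 12 collagens and 6575 and 6387 of all genes had an unadjusted p under 0.05. A lone sample is assumed there to vary like the other group. Collagens under a mean of about 10 rest on few reads, which limits what depth can show.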
